A study of Mus musculus with 8 samples.

Results

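The mitochondrial chromosome of the mouse carries 37 genes, and all 37 were present in the deposited tables among 52636 genes. They were chosen by name alone, as every gene whose symbol starts with mt-, and comprise 13 protein coding genes, 2 ribosomal RNA genes and 22 transfer RNA genes. RNA came from mixed co-cultures of C57BL/6 mouse spleen cells (splenocytes), taken from syngeneic Actin-GFP reporter mice, with colon cancer cells. The cancer cells had been grown as organoids with a tdTomato reporter, injected into the spleen, recovered from liver metastases and sorted. The sort used tdTomato and the helper T cell protein CD4. Trogocytosis is the transfer of membrane pieces between cells. The 4 trogocytic libraries held cancer cells sorted as trogocytic and the 4 non-trogocytic libraries, the control, held cancer cells sorted as non-trogocytic. Both groups were kept for 5 days at 1 cancer cell to 50 splenocytes. The labels give neither an age of the mice nor the genotype of the organoids beyond the reporter. Nor do they say whether replicates were separate animals, so p-values measure the spread between these libraries alone, and that spread may be technical.

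Mitochondrial DNA is a small circle that is present in many copies per cell and is transcribed from both strands as long precursors by a dedicated polymerase. Transfer RNAs lie between most of the other genes, and their excision frees the messenger and ribosomal RNAs, most of which then receive short poly(A) tails. The 13 proteins are core subunits of respiratory chain complexes I, III and IV and of the ATP synthase, complex V. The 2 ribosomal RNAs build the mitochondrial ribosome, and the 22 transfer RNAs serve its translation. In a mixture of cell types the level of these RNAs sums over all cells, so that fewer cells of a type and less RNA per cell cannot be told apart.

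All levels are in TPM, a unit scaled by gene length and to the same total in each library. The libraries held between 1.39 and 1.84 Gb of aligned bases, and 10867 to 12362 genes reached 1 TPM. Spleen and cancer cell RNA were both present in every library. The summed level of 6 leukocyte markers ranged from 609 to 3089 TPM in the non-trogocytic and from 848 to 2224 TPM in the trogocytic libraries. For 7 epithelial markers the ranges were 2850.4 to 8006 TPM and 4641 to 5931 TPM. Hepatocyte and fibroblast markers (6 genes) summed to at most 8.11 TPM in the other libraries and to 147 TPM in non-trogocytic replicate 3. Of 4 brown fat and muscle markers, Ucp1 and Ckm, defining genes of tissues rich in mitochondria, were listed at 0 in all 8 libraries. Myh7 was above 0 only in non-trogocytic replicate 1, at 0.015 TPM. Acta1 ranged from 0 to 6.56 TPM and was highest in trogocytic replicate 3.

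The 37 genes together took 3.51%, 0.975%, 1.69% and 0.838% of the library TPM in non-trogocytic replicates 1 to 4, and 3.52%, 2.21%, 1.65% and 2.23% in trogocytic replicates 1 to 4. Replicate 1 of each group was the highest of its group, and the groups overlapped. The mean was 1.75% ± 1.23 (SD, n = 4) in the non-trogocytic and 2.40% ± 0.793 (SD, n = 4) in the trogocytic libraries. Their difference of 0.650 percentage points was smaller than the spread within either group. It was 1.24 points without non-trogocytic replicate 1 and 0.277 points without trogocytic replicate 1. The shares correspond to the bases of 36068 to 195965 read pairs per library, so counting error was small beside the spread between libraries. The 2 ribosomal RNAs made up 53.5% to 65.1% of this RNA, the protein coding genes 30.8% to 40.3% and the transfer RNA genes 4.09% to 7.17%.

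**Figure D1:**
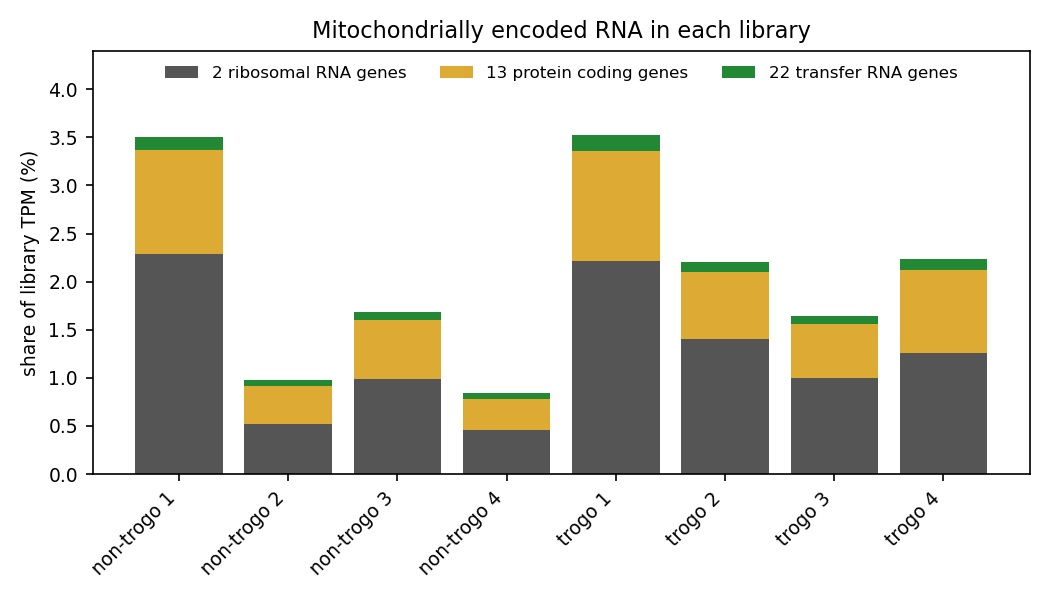
Share of the library TPM (y axis, %) in the 37 mitochondrially encoded genes for each of the 8 libraries, stacked by gene class. Replicate 1 of each group stands at 3.51% and 3.52%, and the other libraries lie between 0.838% and 2.23% with overlapping groups.

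The order of the libraries by this share was trogocytic 1, non-trogocytic 1, trogocytic 4, trogocytic 2, non-trogocytic 3, trogocytic 3, non-trogocytic 2 and non-trogocytic 4. Malat1, an abundant nuclear retained RNA, followed the same order except that non-trogocytic replicate 3 and trogocytic replicate 2 changed places. Its level was 1030.4, 284, 601 and 191 TPM in non-trogocytic replicates 1 to 4 and 1417, 566, 427 and 741 TPM in trogocytic replicates 1 to 4. Malat1 shares its locus with Gm37376, a gene model on the opposite strand with a mean of 2342 TPM over the 8 libraries, and reads from the strands cannot be told apart without a strand setting. Gm37376, chosen after its values were seen, ranged from 546 to 4403 TPM and ordered the libraries exactly as the mitochondrial share of TPM did. Replicate 1 of each group was nearly tied in both, with Gm37376 at 4399 TPM (non-trogocytic) and 4403 TPM (trogocytic). As a share of the bases over gene models (coverage times exon length), the mitochondrial order differed. There non-trogocytic replicate 1 (3.85%) stood above trogocytic replicate 1 (3.68%), and trogocytic replicate 2 (2.396%) above trogocytic replicate 4 (2.386%). The 6 leukocyte markers summed to 3089, 868, 1477 and 609 TPM in the non-trogocytic libraries and to 2224, 905, 848 and 1600.5 TPM in the trogocytic libraries. Here too replicate 1 of each group was the highest of its group, and non-trogocytic replicate 4 was the lowest of all. Epithelial markers had another order, with 2850.4, 8006, 3797 and 5427 TPM in the non-trogocytic and 4694, 5583, 4641 and 5931 TPM in the trogocytic libraries. Macrophage markers (8 genes) summed to 3219.8 to 14308 TPM in the non-trogocytic and to 1605 to 5082 TPM in the trogocytic libraries, and T cell markers (8 genes) to 285 to 921 TPM and 545 to 1297 TPM. The part of cell composition and of RNA retention in the mitochondrial share was not tested.

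**Figure D2:**
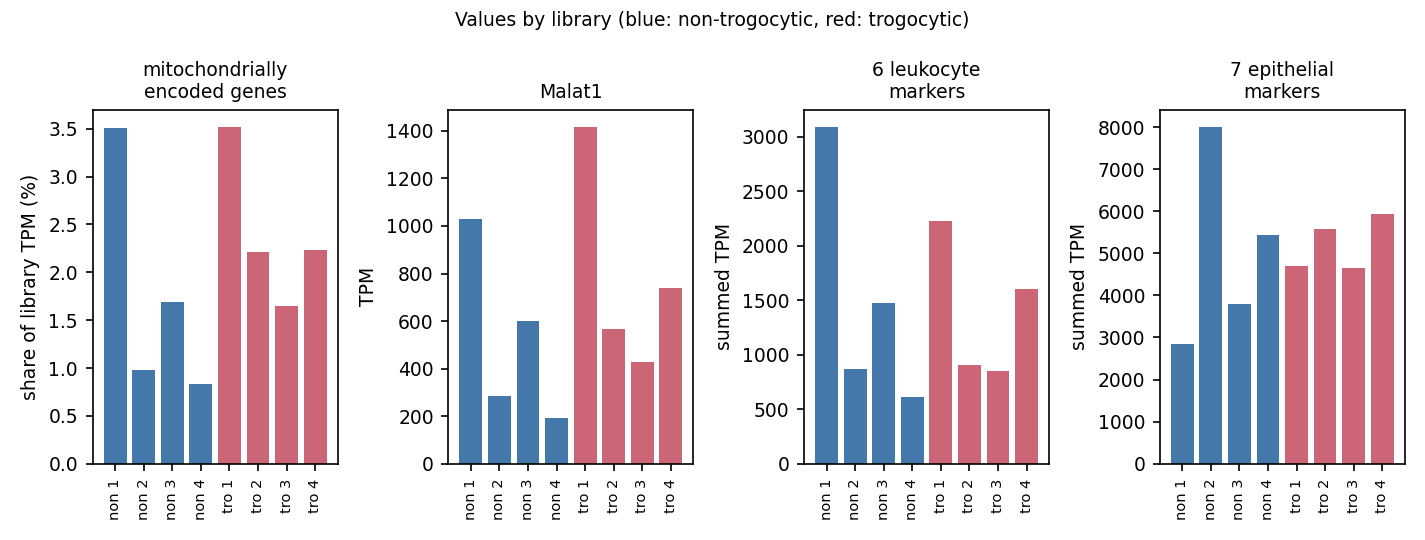
Mitochondrial share of library TPM (%), Malat1 (TPM), summed TPM of 6 leukocyte markers and summed TPM of 7 epithelial markers, one bar per library, blue for non-trogocytic (non) and red for trogocytic (tro). Replicate 1 of each group has the highest bar of its group in the first 3 panels, whereas non-trogocytic replicate 2 is highest for the epithelial markers at 8006 TPM.

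The large ribosomal RNA, mt-Rnr2, was the most abundant mitochondrial transcript in all 8 libraries. It stood at 18839, 4498, 8582 and 4126 TPM in non-trogocytic replicates 1 to 4 and at 17045, 11699, 8345 and 10358 TPM in trogocytic replicates 1 to 4. That was 46.1% to 53.7% of all mitochondrially encoded TPM, a narrow range beside the range of the level itself. The small ribosomal RNA, mt-Rnr1, had 3998, 715, 1275 and 482 TPM in the non-trogocytic libraries and 5144, 2316, 1645 and 2208 TPM in the trogocytic libraries. It varied more than mt-Rnr2 and than any protein coding gene above 0 in all libraries: its highest library was 10.7 times its lowest, against 4.57 times for mt-Rnr2. The ratio of mt-Rnr2 to mt-Rnr1 ranged from 3.31 to 8.57, with a mean of 6.58 ± 1.59 (SD, n = 4) in the non-trogocytic and 4.53 ± 0.832 (SD, n = 4) in the trogocytic libraries. The groups overlapped through non-trogocytic replicate 1, whose ratio was 4.71.

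Of the protein coding genes, mt-Cytb, the sole mitochondrially encoded subunit of complex III, was highest by mean. It stood at 3917, 1825, 2512 and 1359.5 TPM in the non-trogocytic and at 4761, 2858, 2559 and 3883 TPM in the trogocytic libraries. It lay above mt-Rnr1 in 6 of 8 libraries. No non-trogocytic library but replicate 1 reached any trogocytic library.

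Complex IV, cytochrome c oxidase, has 3 mitochondrially encoded subunits at very different levels. mt-Co1, its catalytic subunit, stood at 2064, 497, 877 and 383 TPM in the non-trogocytic and at 2085, 895, 816 and 1312 TPM in the trogocytic libraries. For mt-Co2, which accepts electrons from cytochrome c, the values were 8.87, 3.64, 4.25 and 3.36 TPM and 7.66, 5.39, 2.87 and 9.29 TPM. mt-Co3, the remaining core subunit, ranged from 5.28 to 13.9 TPM. All 3 proteins join the same complex, yet the level of mt-Co1 was 114 to 285 times that of mt-Co2 in the same library.

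Complex I, the NADH dehydrogenase, has 7 of these subunits, and their means over the 8 libraries ran from 0.813 to 1051 TPM. mt-Nd1, which lies where the membrane arm meets the arm that takes up NADH, had 1544, 698, 1089.7 and 602 TPM in the non-trogocytic libraries and 1353, 1338, 717 and 1065 TPM in the trogocytic libraries. Its level was 1.98 to 3.31 times that of mt-Nd2 in the same library. mt-Nd2, mt-Nd4 and mt-Nd5 are the pump-like subunits of the membrane arm, with means of 404, 258 and 511 TPM. mt-Nd5 stood at 917, 173, 403 and 169.6 TPM in the non-trogocytic and at 929.6, 489, 408 and 598 TPM in the trogocytic libraries. The smaller subunits mt-Nd3 and mt-Nd4l were the lowest of the 7. mt-Nd3 had 4.65, 12.0, 6.26 and 5.82 TPM in the non-trogocytic libraries and 1.79, 5.28, 6.46 and 2.78 TPM in the trogocytic libraries, and mt-Nd4l never passed 2.69 TPM and was listed at 0 in non-trogocytic replicate 4.

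mt-Atp8 and mt-Atp6, the subunits of complex V, share 43 bases of sequence on the same strand, so part of their reads cannot be assigned to either. mt-Atp8 stood at 201, 82.5, 107 and 51.2 TPM in the non-trogocytic and at 96.7, 71.2, 37.2 and 105 TPM in the trogocytic libraries. For mt-Atp6 the values were 100.3, 102, 107 and 49.2 TPM, and 86.7, 113, 42.6 and 130.3 TPM. Their ratio lay between 0.629 and 2.00, and mt-Atp8 was higher in 3 of 8 libraries.

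**Figure D3:**
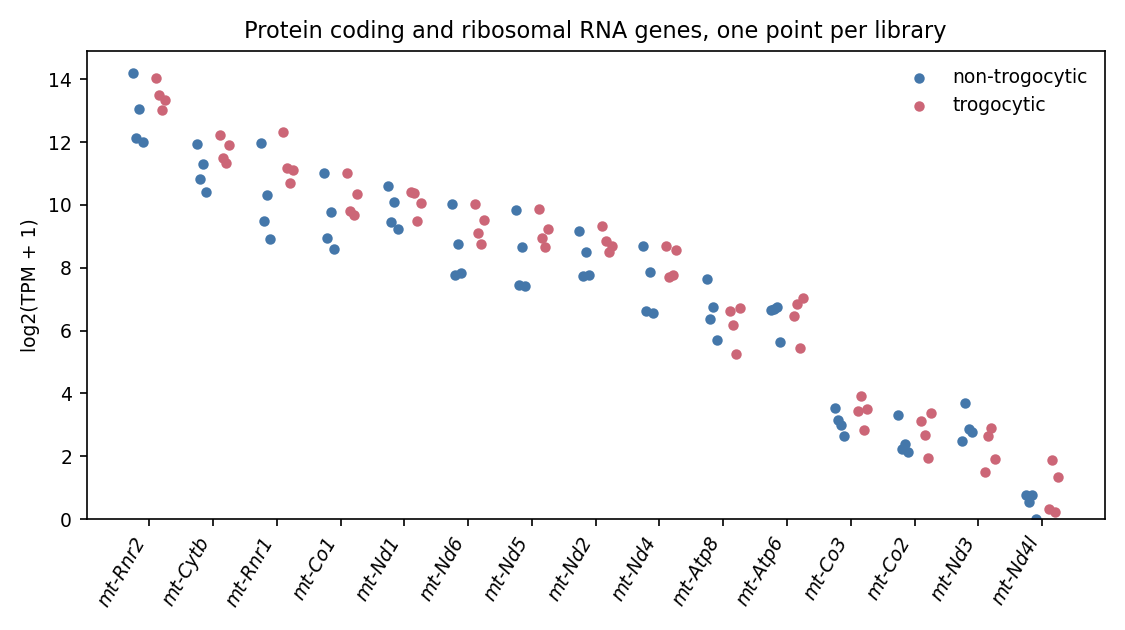
Level of the 13 protein coding and 2 ribosomal RNA genes as log2(TPM + 1) on the y axis, ordered by mean level, one point per library (blue non-trogocytic, red trogocytic). mt-Rnr2 is highest in all 8 libraries, mt-Co3, mt-Co2, mt-Nd3 and mt-Nd4l are lowest, and the groups overlap for each of the 15 genes.

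The order of the 15 genes by mean was mt-Rnr2, mt-Cytb, mt-Rnr1, mt-Co1, mt-Nd1, mt-Nd6, mt-Nd5, mt-Nd2, mt-Nd4, mt-Atp8, mt-Atp6, mt-Co3, mt-Co2, mt-Nd3 and mt-Nd4l. It was nearly the same in every library. Spearman's rho between pairs of libraries over the 15 genes ranged from 0.968 to 1, with a median of 0.986 over 28 pairs. This is a description across genes that share their lengths, annotation and sequence composition in every library. Neighbours in the order that changed places between libraries were mt-Cytb and mt-Rnr1, mt-Co1 and mt-Nd1 (higher in 4 of 8 libraries), mt-Nd5 and mt-Nd2 (6 of 8), mt-Atp8 and mt-Atp6 (3 of 8), and mt-Co2 and mt-Nd3 (4 of 8). The other 9 steps held in all 8 libraries.

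The levels dropped sharply along 1 part of the chromosome, and this part coincided with a near-identical copy in the nuclear genome. In the GENCODE M21 annotation of GRCm38, 7 unprocessed pseudogenes on chromosome 1 (24611535 to 24616197, minus strand) match mitochondrial bases 6390 to 11042 in order, a stretch of 4653 bases. It holds 11 whole mitochondrial genes, 6 of them protein coding (mt-Co2, mt-Atp8, mt-Atp6, mt-Co3, mt-Nd3 and mt-Nd4l) and 5 of them transfer RNA genes, and it reaches into mt-Co1 and mt-Nd4. Nearly all bases of the 5 transfer RNA genes, and most of mt-Atp8, lie between the annotated pseudogenes. That these bases are copied too was inferred from the order of the pseudogenes, because only annotated transcripts were searched. The pseudogenes were not in step throughout. They gave 2 distinct offsets between nuclear and mitochondrial positions, which changed between the copies of mt-Nd3 and mt-Nd4l, where mt-Tr lies. The copies of mt-Co2, mt-Atp6, mt-Co3, mt-Nd4l and mt-Nd4 were identical over their whole annotated length. The first 100 bases of mt-Co2, shown because the chromosome 1 pseudogene Gm28661 carries the very same letters, leave an aligner no base by which to place a read:
mt-Co2 and Gm28661: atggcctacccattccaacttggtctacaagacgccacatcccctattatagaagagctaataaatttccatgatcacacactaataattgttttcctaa

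Over their aligned bases, the copies of mt-Co1 and mt-Nd3 differed from the mitochondrial gene by a single base each. The copy of mt-Co1 is 492 bases long and aligned only from its base 10, so its first bases were not compared. mt-Co1 and its partial copy Gm29216 carried A1066T, 1 difference in 483 aligned bases, and mt-Nd3 and Gm28438 carried T3C, 1 difference in 345, with positions counted from 1 at the 5′ end of the mitochondrial gene and its base given first. The stretches around them, bases 1063 to 1123 of mt-Co1 and 1 to 61 of mt-Nd3, show how little separates the pairs, with the differing base in capitals:
mt-Co1: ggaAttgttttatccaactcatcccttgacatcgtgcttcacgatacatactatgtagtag
Gm29216: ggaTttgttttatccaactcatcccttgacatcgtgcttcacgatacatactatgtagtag
mt-Nd3: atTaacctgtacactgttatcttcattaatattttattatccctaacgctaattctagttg
Gm28438: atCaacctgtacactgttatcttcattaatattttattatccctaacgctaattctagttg

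Outside the stretch the copies had diverged. The closest annotated copy of mt-Cytb, Gm11410 on chromosome 4, matched it at 92.9% over 1142 bases, and the 100 bases from position 2 of each gene held 5 differences, in capitals below, enough to tell a 100-base read of mt-Cytb from one of this copy:
mt-Cytb: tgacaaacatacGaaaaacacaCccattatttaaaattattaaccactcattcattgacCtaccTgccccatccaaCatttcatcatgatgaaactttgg
Gm11410: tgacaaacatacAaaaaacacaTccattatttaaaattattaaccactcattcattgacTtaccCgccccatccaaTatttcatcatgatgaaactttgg

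The share of all 100-base windows of a gene that also occur, letter for letter, in an annotated nuclear copy was 99.9% for mt-Co3, 99.5% for mt-Co2 and for mt-Atp6, 98.5% for mt-Nd4l and 97.6% for mt-Nd3. It was 60.8% for mt-Nd4, 30.8% for mt-Co1 and 3.19% for mt-Nd2, and 0% for the remaining protein coding and both ribosomal RNA genes. mt-Atp8 lies in the copied stretch, but the annotated pseudogene there covers only the 43 bases that it shares with mt-Atp6, less than a window of 100 bases. The 5 protein coding genes wholly outside the stretch (mt-Nd1, mt-Nd2, mt-Nd5, mt-Nd6 and mt-Cytb) had means of 404 to 2959 TPM, and the 6 within it had means of 0.813 to 93.9 TPM, with no overlap. This is a description over genes that are neighbours, without a test.

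The nuclear pseudogenes themselves were listed above 0, some at a higher level than the mitochondrial gene they match. Gm10925, the copy of mt-Atp6, stood at 248, 109, 119 and 70.7 TPM in the non-trogocytic and at 385, 106, 54.1 and 150.2 TPM in the trogocytic libraries, a mean of 155 TPM against 91.5 TPM for mt-Atp6. Gm28437, the copy of mt-Co3, had a mean of 17.5 TPM against 8.90 TPM for mt-Co3. Gm28661 had a mean of 6.83 TPM against 5.67 TPM for mt-Co2. All 3 were thus above their mitochondrial partner by mean. Gm29216 had a mean of 18.5 TPM against 1116 TPM for mt-Co1, Gm28438 one of 0.793 TPM against 5.63 TPM for mt-Nd3, and Gm28439 one of 1.74 TPM against 258 TPM for mt-Nd4. Gm10222 had a mean of 1.52 TPM, above the 0.813 TPM of mt-Nd4l. A further 3 diverged copies on chromosome 2 (Gm13339 of mt-Nd2, Gm13340 of mt-Co1 and Gm13341 of mt-Co2, 95.9% to 97.6% identical) had means of 0.556 to 4.33 TPM.

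Every annotated copy was also added to its mitochondrial gene. The sums averaged 13.05 TPM for mt-Co2, 26.4 TPM for mt-Co3, 247 TPM for mt-Atp6, 6.42 TPM for mt-Nd3 and 2.33 TPM for mt-Nd4l. All lay below the lowest mean of a protein coding gene outside the stretch, 404 TPM for mt-Nd2, with mt-Atp6 closest. mt-Nd4 and mt-Co1, which reach into the stretch, summed to 259 and 1139 TPM. These 10 copies together held 88.4 to 476 TPM per library, against 8376 to 35199.9 TPM for the 37 genes. How the aligner placed or dropped reads that match both genomes equally is not given in the sources used here, so the levels of the genes in the stretch are uncertain, and the part of such reads in the drop was not tested. As a share of all mitochondrially encoded TPM, the 11 genes in the stretch held 1.55% ± 0.497 (SD, n = 4) in the non-trogocytic and 0.908% ± 0.312 (SD, n = 4) in the trogocytic libraries, with ranges of 1.03% to 2.23% and 0.653% to 1.302% that overlapped.

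**Figure D4:**
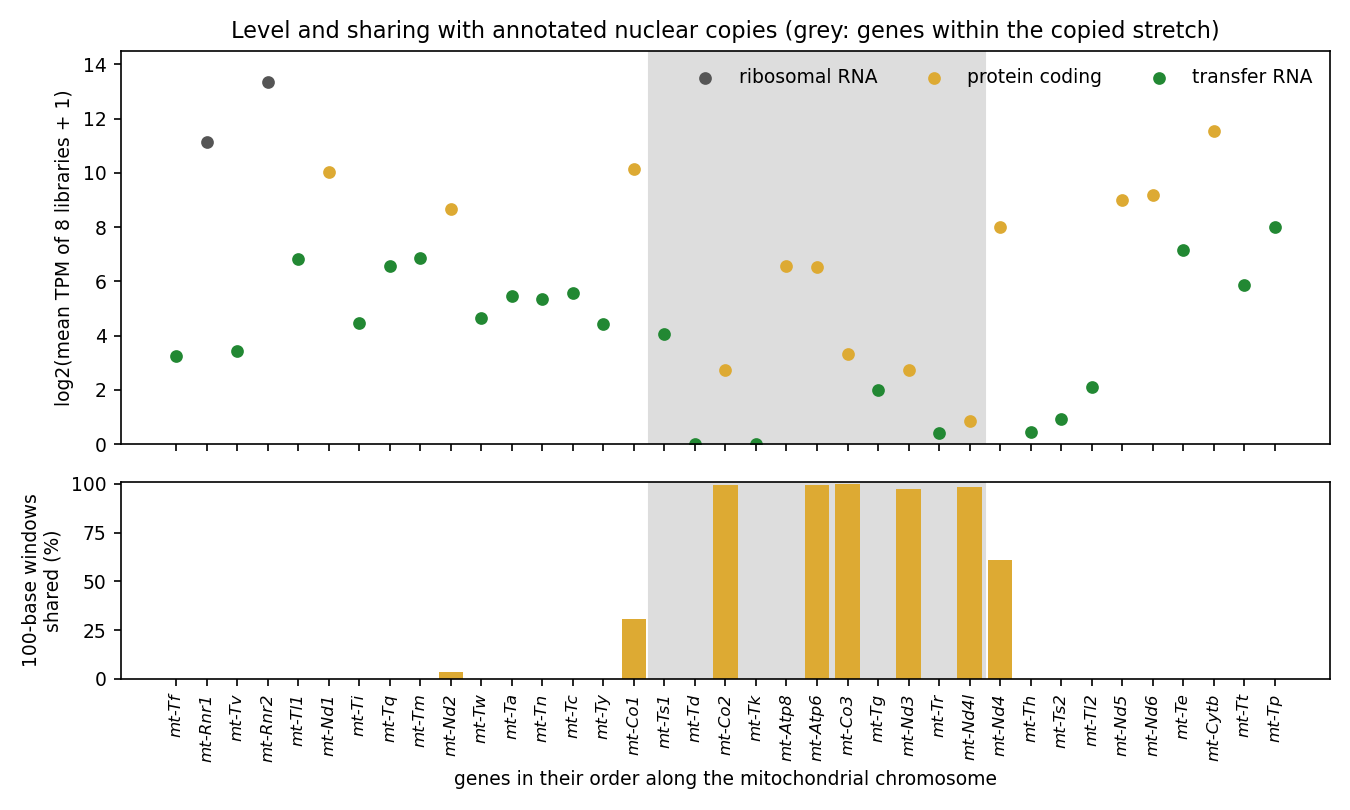
Top, mean level of each of the 37 genes over the 8 libraries as log2(TPM + 1), in their order along the mitochondrial chromosome, coloured by class, with the 11 genes of the copied stretch on grey. Bottom, the percentage of each longer gene's 100-base windows found letter for letter in an annotated nuclear copy, which reaches 97.6% to 99.9% for 5 genes within the stretch.

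mt-Nd6, a subunit of complex I, is the 1 protein coding gene on the strand opposite to the other 12. It overlaps the end of mt-Nd5 by 14 bases. It stood at 1055, 215, 432 and 227 TPM in the non-trogocytic and at 1055, 555, 429.6 and 732 TPM in the trogocytic libraries, above mt-Nd5 in all 8. The ratio of mt-Nd6 to mt-Nd5 was 1.05 to 1.34, and the ratio of mt-Te, the glutamate transfer RNA gene that lies directly upstream of mt-Nd6 on that strand, to mt-Nd6 was 0.181 to 0.299. Both ratios moved less between libraries than the levels did, since mt-Nd6 itself spanned 215 to 1055 TPM. All 9 genes annotated on that strand held 5.36% to 7.88% of mitochondrially encoded TPM. Whether their reads came from that strand cannot be told from these values, because precursors of both strands cover every gene and the strand setting is not given.

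Several mitochondrial genes end without a complete stop codon, which the poly(A) tail then completes. The last 30 bases of 5 genes are printed to show this, with the encoded stop codon or the lone T in capitals:
mt-Co1: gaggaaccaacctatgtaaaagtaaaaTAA
mt-Co2: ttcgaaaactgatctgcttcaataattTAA
mt-Co3: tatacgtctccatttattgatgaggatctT
mt-Nd4: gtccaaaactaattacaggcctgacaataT
mt-Cytb: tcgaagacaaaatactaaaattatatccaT
The means of the 3 genes that end in the lone T were 2959 TPM for mt-Cytb, 258 TPM for mt-Nd4 and 8.90 TPM for mt-Co3, and those of the 2 shown with TAA were 1116 TPM for mt-Co1 and 5.67 TPM for mt-Co2. The relation of level to this feature was not tested, and mt-Co2 and mt-Co3 lie in the copied stretch, where levels are uncertain.

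The transfer RNA genes are 59 to 75 bases long, shorter than a 100-base read, so a read over them must also cover their neighbours unless it was trimmed or clipped. Their means over the 8 libraries ran from 0.0058 to 256 TPM. mt-Tp (proline) was highest at 379, 138, 228 and 194 TPM in the non-trogocytic and at 408, 263, 144 and 294 TPM in the trogocytic libraries, which rests on the bases of only 31.9 to 107 read pairs. It was followed by mt-Te at a mean of 142 TPM, mt-Tm (methionine) at 117 TPM, mt-Tl1 (leucine) at 112 TPM and mt-Tq (glutamine) at 94.4 TPM. The middle of the order held mt-Tt (threonine, 58.0 TPM), mt-Tc (cysteine, 46.6 TPM), mt-Ta (alanine, 43.3 TPM), mt-Tn (asparagine, 40.0 TPM), mt-Tw (tryptophan, 23.9 TPM), mt-Ti (isoleucine, 21.0 TPM), mt-Ty (tyrosine, 20.8 TPM) and mt-Ts1 (serine, 15.9 TPM). Below 10 TPM were mt-Tv (valine, 9.75 TPM), mt-Tf (phenylalanine, 8.47 TPM), mt-Tl2 (leucine, 3.35 TPM) and mt-Tg (glycine, 2.95 TPM).

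At the bottom stood mt-Ts2 (serine, 0.888 TPM), mt-Th (histidine, 0.360 TPM), mt-Tr (arginine, 0.327 TPM), mt-Td (aspartate) and mt-Tk (lysine). mt-Td was above 0 only in non-trogocytic replicate 1, at 0.0676 TPM, and mt-Tk only in trogocytic replicate 3, at 0.0464 TPM, each less than the bases of a single read pair. mt-Td, mt-Tk and mt-Tr lie in the copied stretch, but so do mt-Ts1 (mean 15.9 TPM) and mt-Tg (mean 2.95 TPM). mt-Th and mt-Ts2 lie beyond the stretch, behind mt-Nd4. The order was kept between libraries, with Spearman's rho over the 22 genes of 0.914 to 0.993. The sequences of 3 of the 4 highest transfer RNA genes and of the 3 in the stretch at or near 0 are printed to show their base composition:
mt-Tp: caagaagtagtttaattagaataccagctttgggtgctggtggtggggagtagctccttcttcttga
mt-Te: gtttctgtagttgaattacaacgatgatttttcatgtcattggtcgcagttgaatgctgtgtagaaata
mt-Tl1: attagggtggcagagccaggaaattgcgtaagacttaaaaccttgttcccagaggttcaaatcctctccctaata
mt-Td: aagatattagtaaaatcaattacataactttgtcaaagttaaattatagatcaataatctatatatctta
mt-Tk: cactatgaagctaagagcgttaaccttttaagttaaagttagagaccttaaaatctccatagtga
mt-Tr: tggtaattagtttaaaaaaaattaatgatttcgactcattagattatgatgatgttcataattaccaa
G and C made up 44.8%, 34.8% and 44.0% of the bases of mt-Tp, mt-Te and mt-Tl1, and 17.1%, 33.8% and 22.1% of those of mt-Td, mt-Tk and mt-Tr. The share was 44.9% in mt-Tm, 27.5% in mt-Ti, and 31.3% and 32.2% in the low genes mt-Th and mt-Ts2. mt-Te and mt-Tk thus had nearly the same share at very different levels, and the relation of level to composition was not tested.

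The main comparison of the design asked whether these RNAs differed between the 2 kinds of co-culture. Of the 37 genes, 31 passed the filter of at least 1 TPM in 4 or more libraries, namely 12 protein coding, 2 ribosomal and 17 transfer RNA genes. mt-Nd4l, mt-Td, mt-Tk, mt-Tr, mt-Th and mt-Ts2 were too low to be tested. None of the 31 passed an adjusted p of 0.05 in limma, where 0.0525% of the 11433 genes tested did (6 genes). The smallest adjusted p was 0.939 (limma, Benjamini-Hochberg). At an unadjusted p below 0.05 there were 2 of 31, against 4.59% of all genes tested.

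The 2 genes were mt-Tm and mt-Tq, transfer RNA genes that lie side by side between mt-Nd1 and mt-Nd2 (bases 3845 to 3913, plus strand, and 3772 to 3842, minus strand, of the mitochondrial chromosome in GRCm38). Their sequences are printed because they had the smallest p-values of the 31, and neither matched an annotated nuclear transcript at 80% identity over 50 bases:
mt-Tm: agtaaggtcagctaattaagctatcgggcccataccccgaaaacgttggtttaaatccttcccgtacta
mt-Tq: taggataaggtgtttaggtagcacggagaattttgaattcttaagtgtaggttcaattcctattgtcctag
mt-Tm stood at 108, 83.3, 93.1 and 46.0 TPM in the non-trogocytic and at 157, 152, 179.7 and 113 TPM in the trogocytic libraries. It was the 1 tested mitochondrial gene whose groups did not overlap, and over all genes tested 1.37% had non-overlapping groups with the trogocytic group higher. Its log2 fold change was 0.90 ± 0.28 (SE), with an adjusted p of 0.939 in limma, on the bases of 10.8 to 41.1 read pairs per library. mt-Tq, on the opposite strand, had 76.4, 75.5, 68.8 and 57.5 TPM in the non-trogocytic libraries and 139.7, 119, 145 and 73.1 TPM in the trogocytic libraries. Its groups overlapped, and its log2 fold change was 0.73 ± 0.25 (SE), with an adjusted p of 0.950 in limma.

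Most of the fold changes lay above 0 without passing the test. The log2(TPM + 1) scale makes changes of low genes look smaller than they are. On it, 26 of 31 were above 0, against 50.7% of all genes tested, and the median was 0.49 against 0.0070 over all genes. These genes share their precursors and the library effects described above and are not independent. mt-Rnr1 had a log2 fold change of 1.15 ± 0.58 (SE), mt-Rnr2 one of 0.63 ± 0.43, mt-Cytb one of 0.62 ± 0.31 and mt-Co1 one of 0.63 ± 0.48. For complex I, the values were 0.84 for mt-Nd5, 0.76 for mt-Nd6, 0.74 for mt-Nd4, 0.54 for mt-Nd2 and 0.24 for mt-Nd1. The values below 0 were those of mt-Nd3 (-0.72), mt-Atp8 (-0.43), mt-Tg (-0.28), mt-Tf (-0.12) and mt-Tn (-0.076). Genes in the copied stretch had a median of 0.0031 over 7 tested, and those wholly outside it had a median of 0.56 over 22 tested. mt-Atp6, mt-Co2 and mt-Co3 had log2 fold changes of 0.0031, 0.27 and 0.34, and that of mt-Atp6 lay below 0 on FPKM, at -0.047. None of these fold changes passed the test.

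The comparison depended on non-trogocytic replicate 1, the library with the highest mitochondrial share of its group. Without it, 16 of 31 genes had an unadjusted p below 0.05, against 6.22% of all genes tested, yet the smallest adjusted p was 0.497 (limma, Benjamini-Hochberg) and none was called. Leaving out replicate 1 of both groups, the highest of each, gave 11 of 30 against 5.69%, again with none called. mt-Rnr1 had a log2 fold change of 1.75 without non-trogocytic replicate 1, of 1.42 without replicate 1 of both groups, of 0.74 without non-trogocytic replicate 4 and of 0.82 without trogocytic replicate 1.

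**Figure D5:**
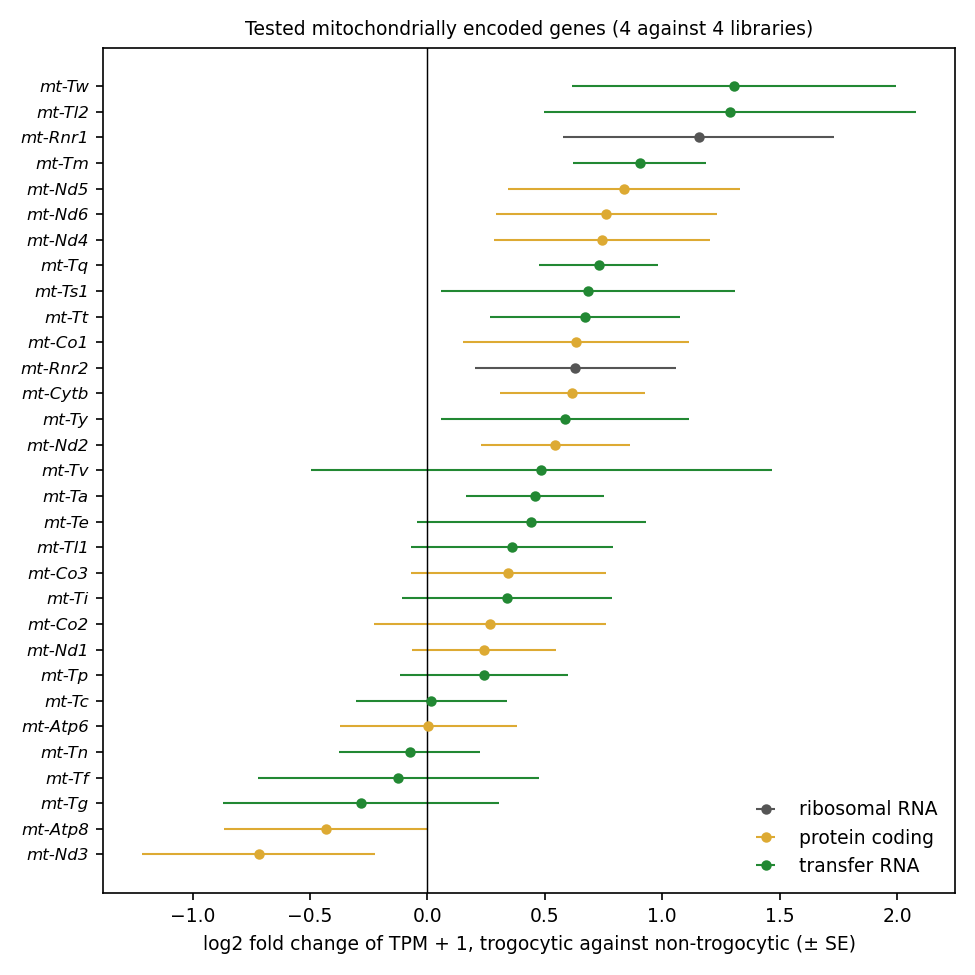
Log2 fold change of TPM + 1, trogocytic against non-trogocytic (x axis, ± SE, 4 against 4 libraries), for the 31 tested mitochondrially encoded genes, coloured by class. Points lie above 0 for 26 genes and below 0 for 5, none passed an adjusted p of 0.05, and mt-Tm and mt-Tq had the smallest p-values.

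Nuclear genes were read from the same fit in 10 lists. The lists cover mitochondrial DNA maintenance, transcription, RNA processing and the mitochondrial ribosome, nuclear respiratory subunits, complex II, biogenesis, stress response, mitophagy, and RNAs that lack a poly(A) tail or stay in the nucleus. They held 198 tested genes, and none passed an adjusted p of 0.05. At an unadjusted p below 0.05 there were 5 of 198, against the same 4.59% of all genes tested. Beside the direction counts of this and the following lists, 50.7% of all genes tested had a log2 fold change above 0, with a median of 0.0070. For mitochondrial DNA maintenance, 12 of 19 tested genes were above 0 and 7 below, with a median of 0.15. Among them, Polg2, the accessory subunit of the mitochondrial DNA polymerase, had means of 11.4 and 18.8 TPM in the non-trogocytic and trogocytic groups, and Ssbp1, the single-strand binding protein, had means of 243 and 289 TPM. Sucla2, a subunit of succinyl-CoA ligase, had means of 426 and 518 TPM. For mitochondrial transcription, 8 of 9 were above 0, with a median of 0.35. Tfb1m, a methyltransferase of the small ribosomal RNA, had means of 4.63 and 12.0 TPM, and Tefm, the elongation factor, means of 76.5 and 79.6 TPM. Mterf3 and Mterf1a, of the termination factor family, had means of 61.8 and 80.8 TPM and of 24.0 and 38.0 TPM.

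Mitochondrial RNA processing and decay held 3 of these 5 genes. Of its 29 tested genes 14 were above 0 and 15 below, with a median of -0.0071. Fastkd5, needed to process precursors that lack a transfer RNA at their boundary, stood at 3.14, 6.28, 7.20 and 3.99 TPM in non-trogocytic replicates 1 to 4 and at 0.173, 0.368, 0.477 and 0.433 TPM in trogocytic replicates 1 to 4. All 4 trogocytic values lay below 1 TPM, so Fastkd5 passed the filter only through the non-trogocytic group. Its groups did not overlap, as for 1.3% of all genes tested in that direction. For a gene that low the filter itself favours this pattern, so the lack of overlap is no support for a difference. Its log2 fold change was -2.13 ± 0.41 (SE), with an adjusted p of 0.254 in limma, and it shares its locus with Ubox5 on the same strand (mean 0.793 TPM). Supv3l1, the helicase that unwinds mitochondrial RNA for decay, had means of 7.81 ± 3.19 and 1.26 ± 1.26 TPM (SD, n = 4 each) and an adjusted p of 0.879 in limma. Mtpap, the mitochondrial poly(A) polymerase, named after its values were seen, had means of 16.8 ± 11.9 and 30.2 ± 6.59 TPM (SD, n = 4 each) and an adjusted p of 0.99975 in limma. Slirp, which stabilises mitochondrial messenger RNA, had means of 429 and 551 TPM, and Trnt1, which adds the CCA end to transfer RNA, means of 318 and 354 TPM, and both overlap an expressed gene on the opposite strand.

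Nuclear genes for the partners of the mitochondrially encoded proteins lay mostly below 0. Of 32 nuclear subunits of complexes I, III, IV and V, 8 were above 0 and 24 below, with a median of -0.083, and all 4 genes of complex II, which has no mitochondrially encoded subunit, were below 0, with a median of -0.25. Of all genes tested, 50.7% were above 0. None of these subunits passed the test, and the difference between these lists and the mitochondrial genes was not tested. Atp5o and Cox7c, abundant subunits of complexes V and IV, had means of 2056 and 1905 TPM and of 2019 and 1957 TPM. Uqcrc2 of complex III had means of 221 and 257 TPM. In complex II, Sdhb had means of 1076 and 1029.8 TPM, Sdhd of 453 and 399 TPM, Sdha of 137 and 108 TPM and Sdhc of 19.6 and 11.9 TPM. For the mitochondrial ribosome, 41 of 80 were above 0 and 39 below, with a median of 0.01. Its members Mrpl17, Mrpl45, Mrpl42 and Mrpl33 had means of 106 and 157, 169 and 229, 2012 and 2256, and 1369 and 1361 TPM.

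Regulators, stress genes and mitophagy genes also gave no call. Of 6 tested biogenesis regulators 1 was above 0, with a median of -0.078, and Myc had means of 75.8 and 62.6 TPM, Yy1 of 31.1 and 30.9 TPM and Pprc1 of 1.83 and 3.14 TPM. Of 9 tested stress response genes 7 were above 0, with a median of 0.22. The stress hormone gene Gdf15 had means of 4.51 and 15.2 TPM, the mitochondrial chaperone genes Hspd1, Hspe1 and Hspa9 had means of 636 and 543, 792 and 823, and 210.3 and 182 TPM, and Hspd1 and Hspe1 overlap on opposite strands. Of 8 tested mitophagy genes 4 were above 0 and 4 below. Bnip3, a mitophagy receptor, had means of 64.4 and 45.1 TPM, Optn, an autophagy adaptor, of 12.8 and 9.32 TPM, Phb2, an inner membrane protein, of 245 and 151 TPM, and Map1lc3b, of the autophagosome membrane, of 449.9 and 444 TPM.

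RNAs that lack a poly(A) tail or stay in the nucleus were read beside the mitochondrial RNAs because libraries were made from polyadenylated RNA. All 3 tested were above 0, with a median of 1.15, and none passed the test. Rpph1, the RNA of ribonuclease P, had means of 114 ± 40.9 and 280 ± 153 TPM (SD, n = 4 each), with a log2 fold change of 1.21 and an adjusted p of 0.939 in limma. Rn7sk, a small nuclear RNA that holds back a transcription elongation factor, had means of 18.5 ± 13.9 and 40.3 ± 24.7 TPM (SD, n = 4 each), and Malat1 means of 527 and 788 TPM. Their part in the mitochondrial values was not tested.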

How the data were processed

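The data are 8 gene abundance tables, 1 per library, from polyadenylated RNA sequenced as 100 bp read pairs, per the labels' protocols. Per the submitters' processing notes, the tools were HISAT2, StringTie 1.3.3 and DESeq version 2, and the build was GRCm38 (mm10). No source used here gives the strand setting or the annotation release. Per the file headers, each deposited table gives coverage (the mean read depth over a gene model), FPKM and TPM. The deposited FPKM is that coverage scaled to aligned bases, and the deposited TPM sums to the same total in each library. Aligned bases were computed as coverage over FPKM, and read pairs as bases over 200.

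TPM was summed per gene ID. Coordinates and sequences are those of GENCODE M21 (GRCm38), in which all 37 mitochondrial IDs had the same coordinates. Nuclear copies were found with blastn 2.17.0 among annotated transcripts (identity of at least 80% over 50 bases), and then by exact 100-base windows. Unannotated copies were not looked for. Genes with at least 1 TPM in 4 or more libraries were fitted with limma 3.58.1 (R 4.3.3, mean-variance trend, log2(TPM + 1), two-sided, Benjamini-Hochberg over 11433 genes), with calls at an adjusted p below 0.05. The script was tested on simulated data. The members and lists were chosen with earlier results of these data known, so counts over a list carry no test. Named were all protein coding and ribosomal RNA genes, transfer RNA genes above 0 in any library, nuclear copies above 1 TPM in any library and, of each nuclear list, the 2 of smallest p and the 2 of highest mean among tested genes, of which 1 is not reported here. Alternatives covered unit, pseudocount, filter, scaling, variance model, members, replicate block and each library left out. Of these, 4 (on nuclear copies and members) were chosen after seeing the data.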

Additional observations from a re-analysis of the deposited data

Results flagged for a closer look

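In a group of 4 libraries, a highest or lowest value was taken as standing apart when its gap to the nearest other passed Dixon's critical value at 95%, as a share of the group's range. Chance flags about 1 in 20 groups, and 13 of 102 groups examined stood apart, many of them genes that were at 0 in the other libraries.

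Among non-trogocytic libraries, replicate 1 stood apart for mt-Co2 at 8.87 TPM (nearest 4.25), mt-Tl2 at 9.05 TPM (nearest 0.248), mt-Ts2 at 3.45 TPM, mt-Th at 1.22 TPM and mt-Td at 0.0676 TPM, the last 3 against 0 in the other libraries. Replicate 4 stood apart as the lowest for mt-Atp6 at 49.2 TPM (nearest 100.3) and mt-Tf at 4.73 TPM (nearest 8.53), and as the highest for mt-Tr at 1.04 TPM.

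Among trogocytic libraries, replicate 1 stood apart for mt-Ty at 48.0 TPM (nearest 17.9) and for the nuclear copy Gm13341 at 2.48 TPM (nearest 0.384), replicate 3 for mt-Tk at 0.0464 TPM, and replicate 4 for mt-Tr at 1.58 TPM and, as the lowest, for mt-Ti at 9.301 TPM (nearest 28.4).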

How the results depend on the processing

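None of the 31 tested mitochondrial genes (30 to 37 under other filters and members) and none of the nuclear genes in the lists was called by limma in any of 21 alternatives. At an unadjusted p below 0.05 the number of mitochondrial genes was 2 or 3 in all of them except 16 without non-trogocytic replicate 1, 11 without replicate 1 of both groups, 9 with a replicate block (5.72% of all genes tested) and 7 with a replicate block and median-of-ratios scaling. Over all genes tested, the 6 calls became 3 with FPKM, 4 and 2 at pseudocounts of 0.1 and 0.01, 4 with a filter of 5 TPM, 1 without a filter, 1 without the mean-variance trend and 0 to 3 with a library left out. The difference in mitochondrial share kept its direction in 18 alternatives, from 0.216 points for protein coding genes only to 1.24 points without non-trogocytic replicate 1, and stayed within the range of 0.277 to 1.24 points with a library left out. The replicate block left it at 0.650 points and called 0 genes of all tested. To look for pairing, each gene's group mean was subtracted from its log2(TPM + 1) values. Over the tested genes, these deviations of same-numbered libraries of the 2 groups correlated at 0.24, 0.0054, 0.06 and -0.09. The value of 0.24, for replicate 1, was the highest of any pair across the groups. Not every library's deviations correlated best with those of its own number. With 4 libraries per group, these correlations cannot decide whether the numbers pair the samples.

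Of the fold changes of single genes under alternatives, 629 kept their sign and 18 changed it, and none of these genes had passed the test. With FPKM, mt-Tc came to -0.033 and mt-Atp6 to -0.047. With libraries left out, values on the log2 scale ranged from -0.16 to 0.25 for mt-Tc, -0.26 to 0.34 for mt-Atp6, -0.19 to 1.19 for mt-Tv, -0.20 to 0.14 for mt-Tn, -0.54 to 0.22 for mt-Tf and -0.69 to 0.28 for mt-Tg. The cause was not tested. Transfer RNA values rest on few reads: the filter leaves genes with the bases of less than 1 read pair in a library. The sequence shared with nuclear copies and the unknown strand setting limit the genes in the copied stretch and on overlapping strands.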
